A study of Homo sapiens with 6 samples.

Results

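Messenger RNA of CAMKK2, of 4 subunits of AMP-activated protein kinase (AMPK) and of 5 regulators of the mechanistic target of rapamycin (mTOR) was followed in LNCaP cells exposed to androgen. The 10 genes are CAMKK2, PRKAA1, PRKAA2, PRKAB1, PRKAB2, DDIT4, SESN1, TSC1, TSC2 and RPTOR, and they were chosen by name rather than by a threshold on their values. They are 10 of 17990 genes in the deposited table. Of them 8 were found by symbol, RPTOR stood under its older symbol KIAA1303, and TSC2 had no symbol and was found by its transcript accession. All 10 averaged 20 counts or more across the 6 libraries, as did 11916 genes of the table.

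LNCaP is an established human prostate cancer cell line that grows in response to androgens. The series asks which transcripts androgen regulates and when. Each of the 6 groups had 1 library: untreated LNCaP cells (0 h), and LNCaP cells given 10 nM dihydrotestosterone (DHT), a potent natural androgen, for 3, 6, 12, 24 or 48 h. All 6 groups, the untreated one included, were grown with 10% fetal bovine serum and then kept for 3 days in medium free of phenol red with 2.5% serum stripped by charcoal and dextran, so the 0 h library is a hormone-depleted state and not ordinary growth. No later untreated library was analysed here, so hours in culture and hours with DHT cannot be told apart.

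AMPK is a kinase of 3 kinds of subunit, a catalytic alpha, a scaffolding beta and a nucleotide-binding gamma, and it is active when cellular energy is low. CAMKK2, a calcium and calmodulin-dependent kinase, and STK11 (LKB1) are its main upstream kinases, which phosphorylate the alpha subunit. Active AMPK restrains the mTOR complex mTORC1, a driver of protein synthesis and growth, by phosphorylating TSC2 and the mTORC1 subunit raptor, the product of RPTOR. TSC1 and TSC2 form a complex that switches off the GTPase RHEB, the direct activator of mTORC1, while DDIT4 (REDD1) and the sestrins are stress-induced inhibitors that act through TSC2 and through AMPK or amino acid sensing. CAMKK2 is known as an androgen receptor target in prostate cancer cells.

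The libraries held 13179917 to 20587956 counts over the listed genes, the 24 h library being the deepest. Levels are given in CPM, which sets that total equal in each library, changes as log2((CPM + 1) in a DHT library over (CPM + 1) at 0 h), and ratios as plain ratios of CPM. As no group had a second library, nothing was tested across samples and there is no p-value: a gene is called higher or lower where the log2 change was at least 1 in size, that is 2-fold, and 95% intervals cover counting error only. The androgen target FKBP5 went from 59.03 CPM at 0 h to 2286 CPM at 24 h, TMPRSS2 from 404 to 4554 CPM at 48 h and KLK3 (PSA) from 4727 to 11950 CPM at 48 h, each past 2-fold. Summed levels of 3 basal epithelium markers were 0.332 to 0.895 CPM, of 3 leukocyte markers 0 to 0.152 CPM and of 2 endothelial markers 0.133 to 1.28 CPM, against 7962 to 21780 CPM for 7 luminal and androgen response markers. The 4 fibroblast markers summed to 32.0 to 69.9 CPM, of which COL1A1 gave 31.2 to 64.3 CPM, and COL1A2 was at 0 counts in all libraries but 1. The 12 h library holds few reads of chromosome 4 and of distal chromosome 15, and none of the 10 genes lies on either chromosome.

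CAMKK2 was the only one of the 10 genes that was higher in each DHT library. At 3 h it was the 1 gene of the 10 called higher, where 0.747% of 11916 genes were. At 6 h CAMKK2, PRKAA1 and PRKAA2 were called higher, against 15.3% of all genes. At 12 h and at 24 h CAMKK2 and PRKAA1 were, against 11% and 10.5%. At 48 h 4 of the 10 were, PRKAB2 and PRKAA2 joining those 2, against 15%. The calls of the 3 subunit genes were lost once the trend with GC content, described further on, was subtracted, and those of CAMKK2 were kept. None of the 10 was called lower at any time, while 0.864%, 3.01%, 7.99%, 10.8% and 7.33% of all genes were lower at 3, 6, 12, 24 and 48 h. The median log2 change of the 10 genes was -0.09, 0.56, 0.18, -0.07 and -0.07 in the order of time, beside -0.08, 0.08, 0.03, -0.09 and -0.06 over all genes. At 1.5-fold, 1, 5, 3, 4 and 4 of the 10 were higher, beside 2.52%, 28.5%, 24.4%, 21.6% and 25.4% of all genes. At 3, 12 and 48 h 1 of the 10 was lower by 1.5-fold (PRKAA2, DDIT4 and SESN1), and at 6 and 24 h 0 were, beside 8.13%, 13.4%, 17.4%, 24.2% and 22% of all genes in the order of time. At 3, 24 and 48 h the median of the 10 genes was therefore near that of all genes, with members on both sides of it. The values below are those of single genes.

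**Figure D1:**
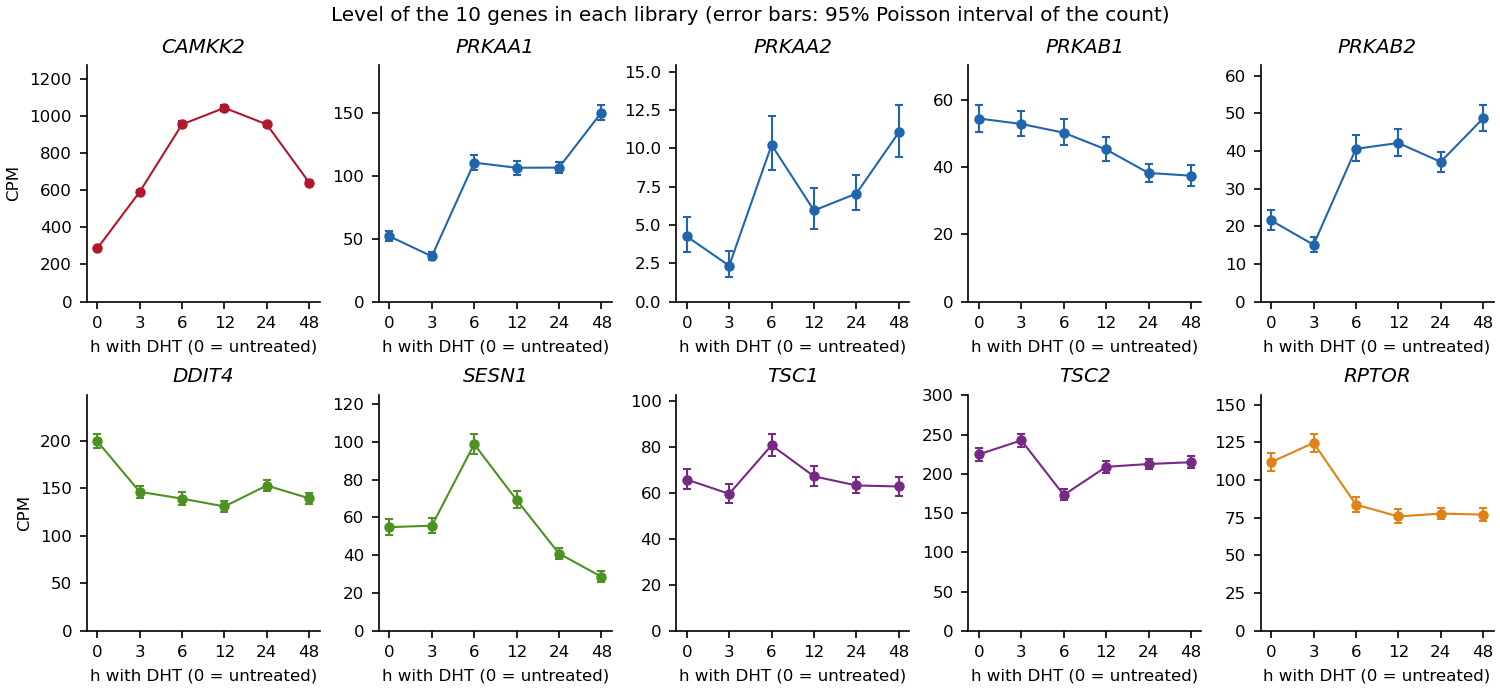
Level of each of the 10 genes in CPM (vertical axes, each starting at 0 with its own range) in the 6 libraries ordered by hours with DHT (evenly spaced, so not to scale in time), with 95% Poisson intervals of the count as error bars. CAMKK2 is lowest at 0 h and highest at 12 h, PRKAA1, PRKAA2 and PRKAB2 are lowest at 3 h and highest at 48 h, and SESN1 peaks at 6 h.

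CAMKK2, on chromosome 12, had 286 CPM at 0 h, then 591, 954, 1044, 954 and 641 CPM at 3, 6, 12, 24 and 48 h, from counts of 3771 to 19651. All 5 DHT libraries were above the untreated one. As scaled the level was highest at 12 h, and at 48 h it lay between the 3 h and 6 h levels. The highest level moved to 24 h in 3 alternative settings. Their log2 changes at 24 and 12 h were 1.87 and 1.84 with TMM factors and 1.83 and 1.81 with median of ratios. With the GC trend subtracted they were 2.13 and 2.09. In RNA of whole cultures a change in the share of cells that make a transcript and a change per cell cannot be told apart. The ratio to 0 h was 2.06 (95% interval 1.99 to 2.15) at 3 h, 3.65 (3.52 to 3.78) at 12 h and 2.24 (2.16 to 2.33) at 48 h. Against the mean of 0 and 3 h the log2 change at 48 h was 0.55, short of 2-fold. From 24 to 48 h the level went to 0.672 of its value (0.6555 to 0.688). As scaled, the 6 h and 24 h libraries differed by less than the counting error (ratio 1.0, interval 0.978 to 1.02). Each other pair of neighbours in that order of levels differed by more. With TMM factors the log2 changes at 6 and 24 h were 1.67 and 1.87. Among 11916 genes CAMKK2 had the 76th largest log2 change at 3 h, the 378th at 6 h, the 181st at 12 h, the 321st at 24 h and the 1442nd at 48 h. Its place was thus highest at the earliest time, when few genes had moved.

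The promoter of CAMKK2 is shown because it belongs to the gene of the group with the earliest and longest increase. It is the stretch of 250 bases before the annotated start, from RefSeq on GRCh38.p14, chr12:121296710-121296959 on the minus strand, written 5' to 3' of the gene. Capitals mark GC boxes (GGGCGG, or CCGCCC on the other strand) and the CCAAT box (CCAAT, or ATTGG on the other strand).
CAMKK2 promoter: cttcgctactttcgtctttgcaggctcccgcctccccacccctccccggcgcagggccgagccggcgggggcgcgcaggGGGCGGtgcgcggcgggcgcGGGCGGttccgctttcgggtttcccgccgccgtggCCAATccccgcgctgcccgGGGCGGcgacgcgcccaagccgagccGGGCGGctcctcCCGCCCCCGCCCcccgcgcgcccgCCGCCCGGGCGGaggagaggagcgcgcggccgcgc
This window is 82.8% G and C, against a median of 58.0% over 35116 promoters of the same length, and holds 8 GC boxes and 1 CCAAT box. At least 1 GC box stands in 42.6% of all promoters and at least 1 CCAAT box in 32.0%. The androgen half-site AGAACA, or TGTTCT on the other strand, is not spelled in it, and stands in 12.4% of all promoters. The full androgen response element, taken as AGAACA and TGTTCT with 3 bases between them, is not spelled in it either, stands in 0.00285% of promoters and counts as half-sites too. Such matches describe letters in a short window, and sites farther from the start were not examined.

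Relative to its paralog and to the other main AMPK kinase, CAMKK2 stood higher at every DHT time than at 0 h. Both ratios fell from 6 to 12 h and from 24 to 48 h. CAMKK1, which encodes the second CaMKK, had 51.6 CPM at 0 h and 37.3, 18.9, 28.3, 17.1 and 23.8 CPM after it, and was called lower at 6, 24 and 48 h, the last call being lost with the GC trend subtracted (log2 -0.63). Within 1 library, CAMKK2 had 5.55 counts per count of CAMKK1 (5.11 to 6.03) at 0 h, 15.8 (14.5 to 17.3) at 3 h, 50.4 (44.5 to 57.3) at 6 h, 36.9 at 12 h and 55.8 (50.2 to 62.2) at 24 h. By 48 h the ratio was 26.95. The lowest of the 5 DHT ratios, at 3 h, lies outside the interval of the 0 h ratio. STK11 had 145 CPM at 0 h and 77.3 to 123 CPM after it, none past 2-fold. CAMKK2 counts per STK11 count were 1.98 (1.87 to 2.09) at 0 h, 4.79 at 3 h, 12.3 (11.6 to 13.2) at 6 h and 6.78 (6.42 to 7.18) at 48 h.

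**Figure D2:**
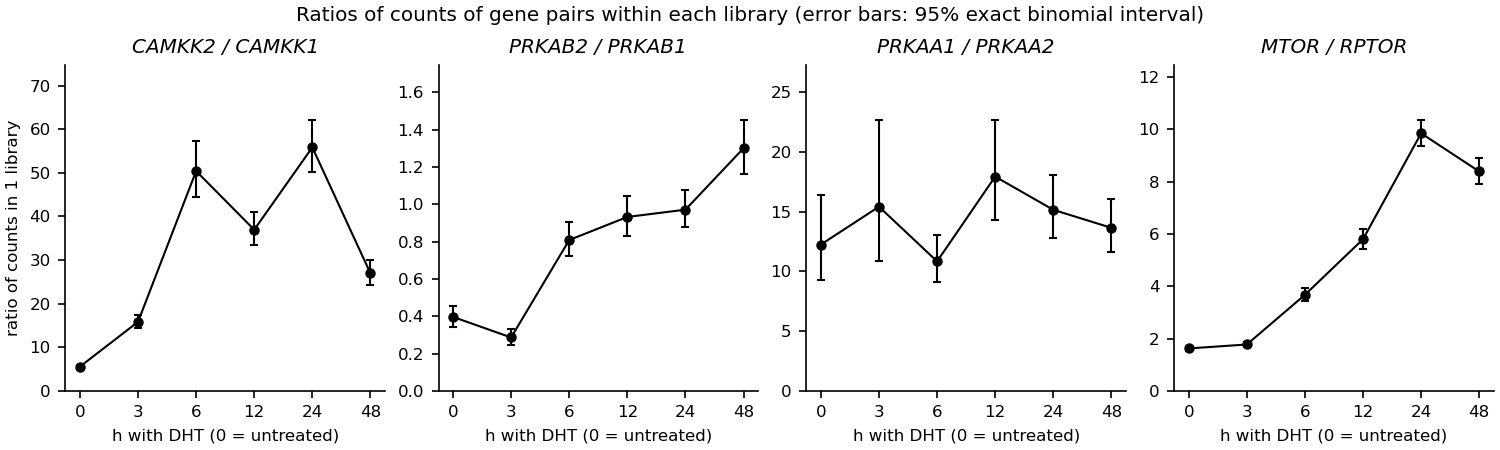
Ratio of the counts of 2 genes within each library (vertical axes starting at 0) against hours with DHT (evenly spaced), for CAMKK2 over CAMKK1, PRKAB2 over PRKAB1, PRKAA1 over PRKAA2 and MTOR over RPTOR, with 95% exact binomial intervals as error bars. CAMKK2 over CAMKK1 is 5.55 at 0 h and 15.8 to 55.8 later, whereas the intervals of PRKAA1 over PRKAA2 at 0, 24 and 48 h overlap.

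PRKAA1 and PRKAA2 encode the 2 catalytic alpha subunits, and both had their lowest level at 3 h and their highest at 48 h. PRKAA1, on chromosome 5, had 52.0 CPM at 0 h and 36.1, 111, 107, 107 and 151 CPM at 3, 6, 12, 24 and 48 h. It was lowest at 3 h and highest at 48 h, with the 6, 12 and 24 h libraries not apart beyond counting error. The ratio to 0 h was 0.693 (0.617 to 0.778) at 3 h, 2.13 (1.94 to 2.33) at 6 h, 2.05 (1.88 to 2.24) at 24 h and 2.89 (2.65 to 3.16) at 48 h. Between 3 and 6 h alone the level went up 3.07-fold (2.77 to 3.40). The calls at 6 and 12 h were just lost under median-of-ratios scaling, with log2 changes of 0.97 and 0.96 in place of 1.07 and 1.02, and all 4 calls with the GC trend subtracted.

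PRKAA2, on chromosome 1, was measured on few reads, with 56, 33, 137, 81, 145 and 166 counts. Its levels were 4.25 CPM at 0 h and 2.34, 10.2, 5.94, 7.04 and 11.03 CPM after it, so the 3 h library was again lowest, and the 48 and 6 h libraries, the 2 highest, did not differ beyond counting error. From 6 to 12 h PRKAA2 went to 0.582 (0.4365 to 0.771) of its level, while PRKAA1 was at 0.963 (0.895 to 1.036) of its own. The PRKAA2 ratio to 0 h was 2.40 (1.75 to 3.34) at 6 h and 2.60 (1.91 to 3.58) at 48 h. At 12 h it was 1.40, with an interval of 0.983 to 2.003 that includes no difference. The 6 h call of PRKAA2 was just lost under median-of-ratios scaling, with a log2 change of 0.997 in place of 1.10. PRKAA1 had 12.25 counts per PRKAA2 count (9.32 to 16.4) at 0 h and 10.8 to 17.9 in the DHT libraries. Per kilobase of transcript PRKAA2 was the lowest of the 10 genes in each library, at 0.25 to 1.18 CPM per kb, and PRKAA1 had 7.09 to 29.6 CPM per kb. PRKAA1 was therefore the main alpha subunit transcript in all 6 libraries.

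The beta subunits, which hold the complex together, differed in course as scaled, and less so with the GC trend subtracted. PRKAB1, on chromosome 12, had 54.4 CPM at 0 h and 52.8, 50.2, 45.2, 38.2 and 37.4 CPM at 3, 6, 12, 24 and 48 h. Each later library was below the one before it, but only the step from 12 to 24 h exceeded counting error (ratio 0.846, 0.760 to 0.941), and no time was past 2-fold. The ratio to 0 h was 0.703 (0.634 to 0.779) at 24 h and 0.688 (0.615 to 0.769) at 48 h. PRKAB2, on chromosome 1, had 21.5 CPM at 0 h and 15.1, 40.6, 42.1, 37.1 and 48.6 CPM after it, lowest at 3 h and highest at 48 h like the alpha subunits. It was called higher at 48 h (ratio 2.26, 1.97 to 2.60), and its log2 changes at 6, 12 and 24 h were 0.88, 0.94 and 0.76, short of 2-fold. Against the mean of 0 and 3 h those at 6 and 12 h were 1.11 and 1.16, past 2-fold.

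PRKAB2 counts per PRKAB1 count were 0.396 (0.344 to 0.455) at 0 h, 0.286 (0.244 to 0.333) at 3 h, 0.808 (0.721 to 0.906) at 6 h, 0.932 at 12 h, 0.971 at 24 h and 1.30 (1.16 to 1.45) at 48 h. From 6 h on the intervals of this ratio lay above that of 0 h. The transcripts differ in GC content, 54.2% for PRKAB1 and 41.35% for PRKAB2, and with the trend of all genes with GC content subtracted the log2 changes at 6, 24 and 48 h were 0.07, -0.18 and -0.17 for PRKAB1 and 0.13, 0.31 and 0.53 for PRKAB2. Most of the shift at 6 h thus went with GC content. Per kilobase PRKAB1 stayed the more abundant of the pair at each time, with a PRKAB2 to PRKAB1 ratio of 0.191 at 0 h and 0.626 at 48 h. Of the gamma subunits, which bind AMP and ATP, PRKAG1 had 98.7 to 135 CPM and PRKAG2 13.3 to 21.7 CPM, with no time past 2-fold, and PRKAG3, known for skeletal muscle, had 0 to 3 counts. Over the list of AMPK subunits 6 of 7 could be measured. At 6, 12, 24 and 48 h 2, 1, 1 and 3 of them were called higher, beside 15.3%, 11%, 10.5% and 15% of all genes. Those called were all alpha or beta subunits. At each time 0 were called lower, beside 0.864% to 10.8% of all genes. With the GC trend subtracted 0 of the 6 were called at any time. On that scale 0.943% to 7.23% of all genes were higher and 0.424% to 7.35% lower, depending on the time.

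The promoters of the 2 beta subunit genes are shown because the pair differed in course as scaled. Both are the 250 bases before the annotated start from RefSeq on GRCh38.p14, PRKAB1 at chr12:119667883-119668132 on the plus strand and PRKAB2 at chr1:147172471-147172720 on the minus strand. Capitals mark GC boxes, CCAAT boxes and the androgen half-site, spelled as above, on either strand.
PRKAB1 promoter: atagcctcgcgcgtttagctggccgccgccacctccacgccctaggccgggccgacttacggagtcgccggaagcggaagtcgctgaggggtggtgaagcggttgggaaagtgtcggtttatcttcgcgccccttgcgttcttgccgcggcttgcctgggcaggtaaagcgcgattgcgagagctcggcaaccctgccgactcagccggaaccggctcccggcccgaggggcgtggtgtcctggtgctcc
PRKAB2 promoter: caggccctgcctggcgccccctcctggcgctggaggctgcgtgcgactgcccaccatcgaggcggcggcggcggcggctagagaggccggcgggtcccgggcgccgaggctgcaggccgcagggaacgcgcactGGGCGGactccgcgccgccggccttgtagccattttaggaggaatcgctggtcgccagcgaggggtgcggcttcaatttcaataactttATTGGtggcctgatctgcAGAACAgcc
None of these 3 motifs is spelled in the PRKAB1 window, which is 67.6% G and C. The PRKAB2 window, at 69.6%, holds 1 of each, the half-site lying close to the start. Over the promoters of all 10 genes, each matched in the RefSeq table with 1 to 3 starts, the full androgen element occurs in none and the half-site in that of PRKAB2 only. The alpha subunit promoters hold 8 (PRKAA1) and 5 (PRKAA2) GC boxes. DDIT4 has 2 CCAAT boxes, RPTOR none of the motifs searched, and 1 of the 2 starts of TSC2 an E box (CACGTG, in 6.34% of promoters).

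Of the transcripts of the 10 genes, those of PRKAA1, PRKAA2 and PRKAB2 are the lowest in GC content, with that of SESN1 next. PRKAA1 is 35.3% G and C, PRKAA2 35.2%, PRKAB2 41.35% and SESN1 43.4%, whereas the other members lie between 48.5% (TSC1) and 60.5% (TSC2). Across 11559 genes the log2 change correlated with GC content at a Pearson r of 0.231 at 3 h, -0.739 at 6 h, -0.432 at 12 h, -0.516 at 24 h and -0.56 at 48 h; the genes share the libraries and are not independent. A smooth curve through all genes gave a log2 change of 1.36 at 6 h and 1.40 at 48 h for a transcript of the GC content of PRKAA1. With that curve subtracted, PRKAA1 had log2 changes of -0.13, -0.28, -0.05, 0.12 and 0.11 in the order of time, and PRKAA2 had -0.26, -0.27, -0.68, -0.29 and -0.22. For both genes the sign thus turned at 6 and 12 h, and for PRKAA2 also at 24 and 48 h. PRKAB2 kept 0.13, 0.31, 0.31 and 0.53 from 6 to 48 h, all under 2-fold, of 0.88, 0.94, 0.76 and 1.14 as scaled. The part of GC content in these changes, as a feature of library making or of the cells, was not tested.

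CAMKK2, at 56.0% G and C, lay far above the curve. With the curve subtracted its log2 changes were 1.03, 2.003, 2.09, 2.13 and 1.57, larger than as scaled at every time but 3 h. It was then the only one of the 10 called higher, at all 5 times, where 0.943%, 3.75%, 4%, 7.09% and 7.23% of 11559 genes were. On that scale the only member called lower at any time was SESN1 at 48 h, and 0.424%, 1.56%, 7.35%, 6.55% and 4.78% of all genes were lower in the order of time.

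**Figure D3:**
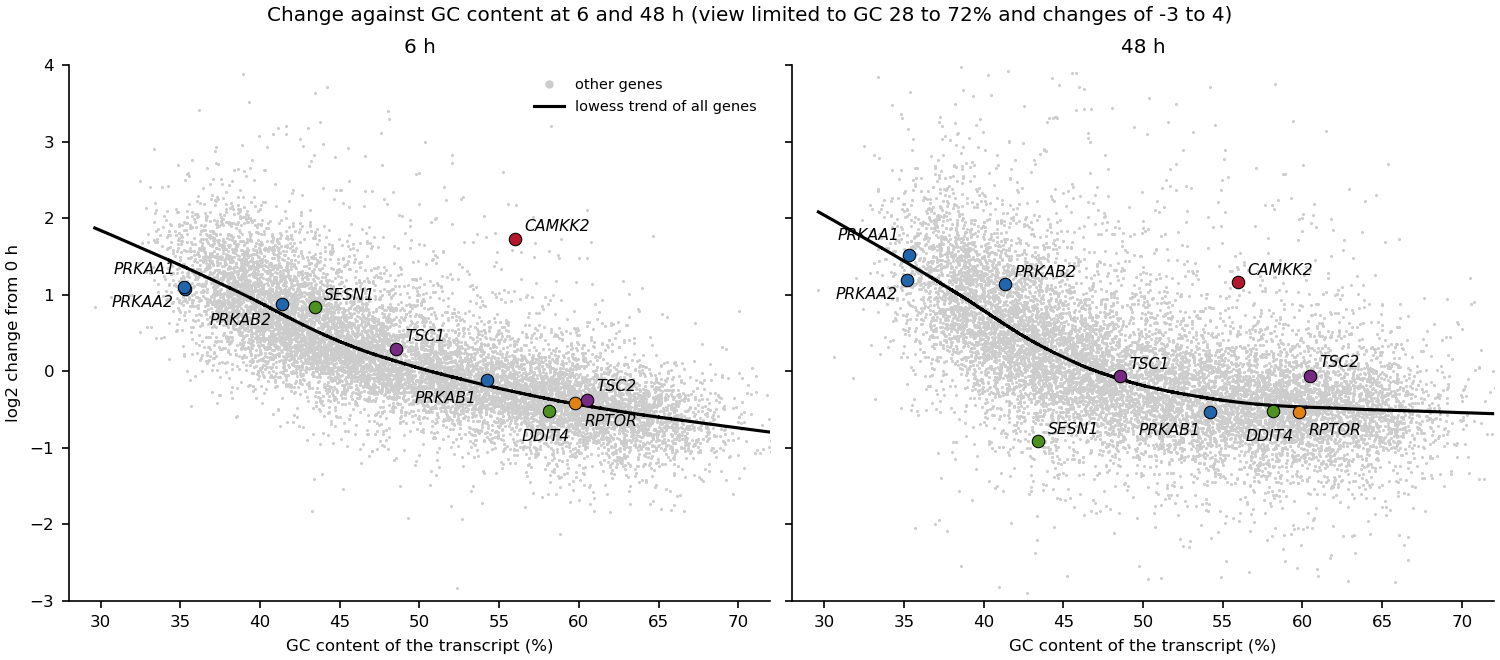
Log2 change from 0 h (vertical axis) against GC content of the transcript in percent (horizontal axis) at 6 h and 48 h, with other genes as grey points, the 10 genes as large coloured points and the lowess curve over all genes as a black line. PRKAA1 and PRKAA2 lie close to the curve at 35% GC, CAMKK2 lies well above it at both times, and SESN1 lies below it at 48 h.

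DDIT4 and SESN1 encode inhibitors of mTORC1 that respond to stress. DDIT4, on chromosome 10, had 199 CPM at 0 h and 146, 139, 131, 153 and 139 CPM at 3, 6, 12, 24 and 48 h. The untreated library was the highest, 1.30 times the next (1.24 to 1.37). Among the 5 DHT libraries no neighbours in the order of levels differed beyond counting error. In the order of time the steps from 12 to 24 h (ratio 1.17, 1.10 to 1.24) and from 24 to 48 h (0.912, 0.862 to 0.964) did. The ratio to 0 h was 0.7335 (0.692 to 0.777) at 3 h and 0.656 (0.6175 to 0.697) at 12 h, none past 2-fold. At 3 h 84.9% of all genes had a larger log2 change than DDIT4. With the GC curve subtracted its log2 change at 3 h was still -0.44, while at 24 and 48 h it was 0.09 and -0.07.

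SESN1, on chromosome 6, had 54.9 CPM at 0 h and 55.6, 98.7, 69.3, 40.9 and 28.6 CPM after it. The 0 and 3 h libraries did not differ beyond counting error, the 6 h library was the highest, and each library after it was below the one before. The ratio to 0 h was 1.80 (1.64 to 1.97) at 6 h, 0.7455 (0.674 to 0.825) at 24 h and 0.522 (0.462 to 0.589) at 48 h. From the peak the level went to 0.702 (0.645 to 0.763) by 12 h, then to 0.590 of that by 24 h and to 0.700 of that by 48 h. On the log2 scale it ended at -0.91 at 48 h, just short of 2-fold. With the GC curve subtracted the 6 h change was 0.30 and the 48 h change -1.26, past 2-fold.

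The other members of this inhibitor list were not higher at late times either. SESN2 had 61.5 CPM at 0 h and 40.3 CPM at 48 h (log2 -0.60), and DDIT4L had 0 counts in all 6 libraries, which allows up to 0.228 CPM in the shallowest. SESN3 had 87.8 CPM at 0 h and 50.8, 133, 72.7, 53.9 and 41.4 CPM after it, and was called lower at 48 h (log2 -1.07, and -2.24 with the GC curve subtracted). All 4 measured inhibitors were below their 0 h level in the 24 h and the 48 h library (median log2 change -0.40 and -0.76), as were 6473 and 6312 of all 11916 genes. Of the 4, 0 and 1 were called lower, beside 10.8% and 7.33% of all genes. With the GC curve subtracted DDIT4 and SESN2 were above 0 at 24 h, at 0.09 and 0.19, and SESN1 and SESN3 were below it at both times. SESN1 counts per DDIT4 count were 0.275 (0.253 to 0.299) in the untreated library, 0.710 (0.661 to 0.762) at 6 h and 0.2055 (0.185 to 0.228) at 48 h.

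TSC1 and TSC2 stayed close to their untreated level. TSC1, on chromosome 9, had 65.9 CPM at 0 h and 59.7, 80.9, 67.4, 63.4 and 62.9 CPM after it. The 6 h library stood above the others, with a ratio to 0 h of 1.23 (1.121 to 1.34), and at 12, 24 and 48 h the interval of the ratio included no difference. With the GC curve subtracted its 5 log2 changes lay between -0.11 and 0.16. TSC2, on chromosome 16, had 225 CPM at 0 h and 243, 173, 209, 212.5 and 215 CPM after it. Its 6 h library was the lowest, with a ratio to 0 h of 0.770 (0.729 to 0.813), and its 48 h ratio was 0.955 (0.908 to 1.004).

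At 6 h the 2 partners of the complex thus differed in opposite senses from 0 h. TSC2 counts per TSC1 count were 3.41 (3.16 to 3.68) at 0 h, 2.14 (1.99 to 2.30) at 6 h and 3.41 (3.17 to 3.67) at 48 h. With the GC curve subtracted the TSC2 log2 changes were 0.14, 0.08, 0.27, 0.45 and 0.40, so their sign turned from 6 h on. TBC1D7, the third subunit of the complex, had 17.2 to 24.3 CPM, and RHEB had 27.7 CPM at 0 h, 44.6 at 12 h and 40.3 at 48 h (log2 0.53). None of these 4 genes was past 2-fold at any time, where 0.747% to 15.3% of all genes were higher and 0.864% to 10.8% lower. RHEBL1, a relative of RHEB, had 14 to 27 counts, too few to enter.

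RPTOR, on chromosome 17, had 112 CPM at 0 h and 125, 83.7, 75.8, 77.7 and 77.0 CPM at 3, 6, 12, 24 and 48 h. The level was highest at 3 h, and the step from 3 to 6 h had a ratio of 0.672. The ratio to 0 h was 1.11 (1.04 to 1.19) at 3 h, 0.748 (0.692 to 0.809) at 6 h, 0.678 (0.625 to 0.734) at 12 h and 0.689 (0.637 to 0.744) at 48 h, none past 2-fold. With the GC curve subtracted the log2 changes were 0.18, 0.01, -0.20, -0.01 and -0.07, within 1.5-fold at all 5 times. MTOR, whose product joins raptor in mTORC1, had another course.

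**Figure D4:**
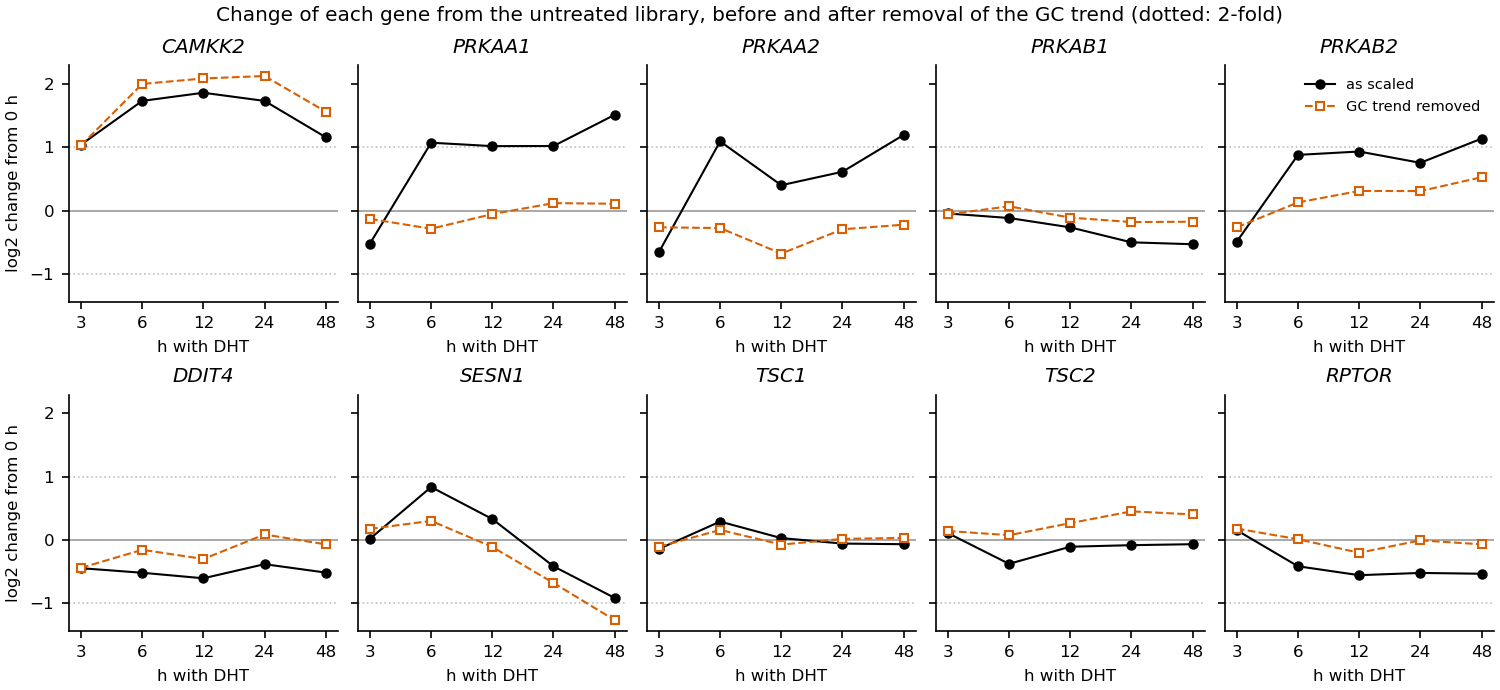
Log2 change of each of the 10 genes from 0 h (vertical axes, shared range) against hours with DHT (evenly spaced), as scaled (black circles) and with the GC curve subtracted (orange squares), with dotted lines at 2-fold. CAMKK2 lies above 2-fold at all 5 times on both scales, the increases of PRKAA1 and PRKAA2 are at or below 0.12 once the curve is subtracted, and SESN1 falls past 2-fold lower at 48 h only then.

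MTOR, the kinase itself, is listed under its older symbol FRAP1 and had 181 CPM at 0 h and 221, 307, 440, 766 and 646 CPM after it. It was called higher at 12, 24 and 48 h, with log2 changes of 1.27, 2.07 and 1.83, and of 1.34, 2.31 and 2.11 with the GC curve subtracted. MTOR counts per RPTOR count were 1.62 (1.52 to 1.73) at 0 h, 3.67 at 6 h, 5.80 at 12 h, 9.85 (9.36 to 10.4) at 24 h and 8.39 (7.90 to 8.93) at 48 h. RICTOR, the subunit that defines mTORC2, had 6.98 CPM at 0 h, 4.04 at 3 h and 28.8, 21.7, 23.3 and 39.8 CPM at 6, 12, 24 and 48 h. Its transcript is 36.5% G and C, and its log2 changes at 24 and 48 h, 1.61 and 2.35, were 0.79 and 1.10 with the GC curve subtracted. DEPTOR, an inhibitor bound to both mTOR complexes, was called lower, with 22.9 CPM at 0 h and 8.31 and 9.84 CPM at 24 and 48 h (log2 -1.36 and -1.14). MLST8, a subunit of both complexes, went from 201 CPM to 108 and 117 CPM at those times, short of 2-fold.

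The wider pathway was read from 9 lists by role, which hold 77 genes beyond the 10. Of these 76 were found and 69 had a mean of at least 20 counts. At 24 h 10 of the 69 were called higher and 6 lower (10.5% and 10.8% of all genes), and at 48 h 11 and 4 (15% and 7.33%), with medians of -0.03 and -0.01. The lists as a whole thus had shares close to those of the whole table. With the GC curve subtracted the counts were 6 and 5 at 24 h, beside 7.09% and 6.55% of 11559 genes. At 48 h they were 7 and 3, beside 7.23% and 4.78%. Beside CAMKK1, MTOR, RICTOR and DEPTOR, 7 genes were past 2-fold in 1 direction at both times.

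Of those 7, 4 are direct AMPK targets. PFKFB2, which encodes an enzyme that controls glycolysis, had 43.5 CPM at 0 h and 196 and 231 CPM at 24 and 48 h (log2 2.15 and 2.38). TBC1D4 (AS160), which controls glucose transporter traffic, had 13.05, 54.8 and 52.3 CPM (log2 1.99 and 1.92). Subtracting the GC curve left 1.97 and 2.14 for PFKFB2, and 1.98 and 1.92 for TBC1D4. The 2 acetyl-CoA carboxylases differed in sign: ACACA, of fatty acid synthesis, had 824 CPM at 0 h and 1717 and 1916 CPM at 24 and 48 h, and ACACB, which restrains fatty acid oxidation, had 33.7, 11.9 and 14.8 CPM. ACACA had log2 changes of 1.06 and 1.22, and ACACB of -1.43 and -1.14. Subtracting the GC curve gave 1.14 and 1.33 for ACACA and -1.08 and -0.77 for ACACB, so the 48 h call of ACACB was lost.

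The other 3 were LAMTOR3 and FNIP1 of lysosomal amino acid sensing and PDCD4, a translation inhibitor degraded after S6 kinase signalling. Their log2 changes were 1.37 and 1.60 for LAMTOR3, 1.11 and 1.80 for FNIP1 and 1.05 and 1.0 for PDCD4. Their transcripts are 37.7%, 43.0% and 38.9% G and C, and with the GC curve subtracted only FNIP1 at 48 h, at 1.40, was past 2-fold. LAMTOR3 lies on chromosome 4 and had 4.55 CPM at 12 h, against 20.7 at 6 h and 22.8 at 24 h. In the list of other CAMKK2 substrates and partners the largest change at 24 h was that of CAMK1D, a substrate of CaMKKs, at -1.19 (-0.26 at 48 h).

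**Figure D5:**
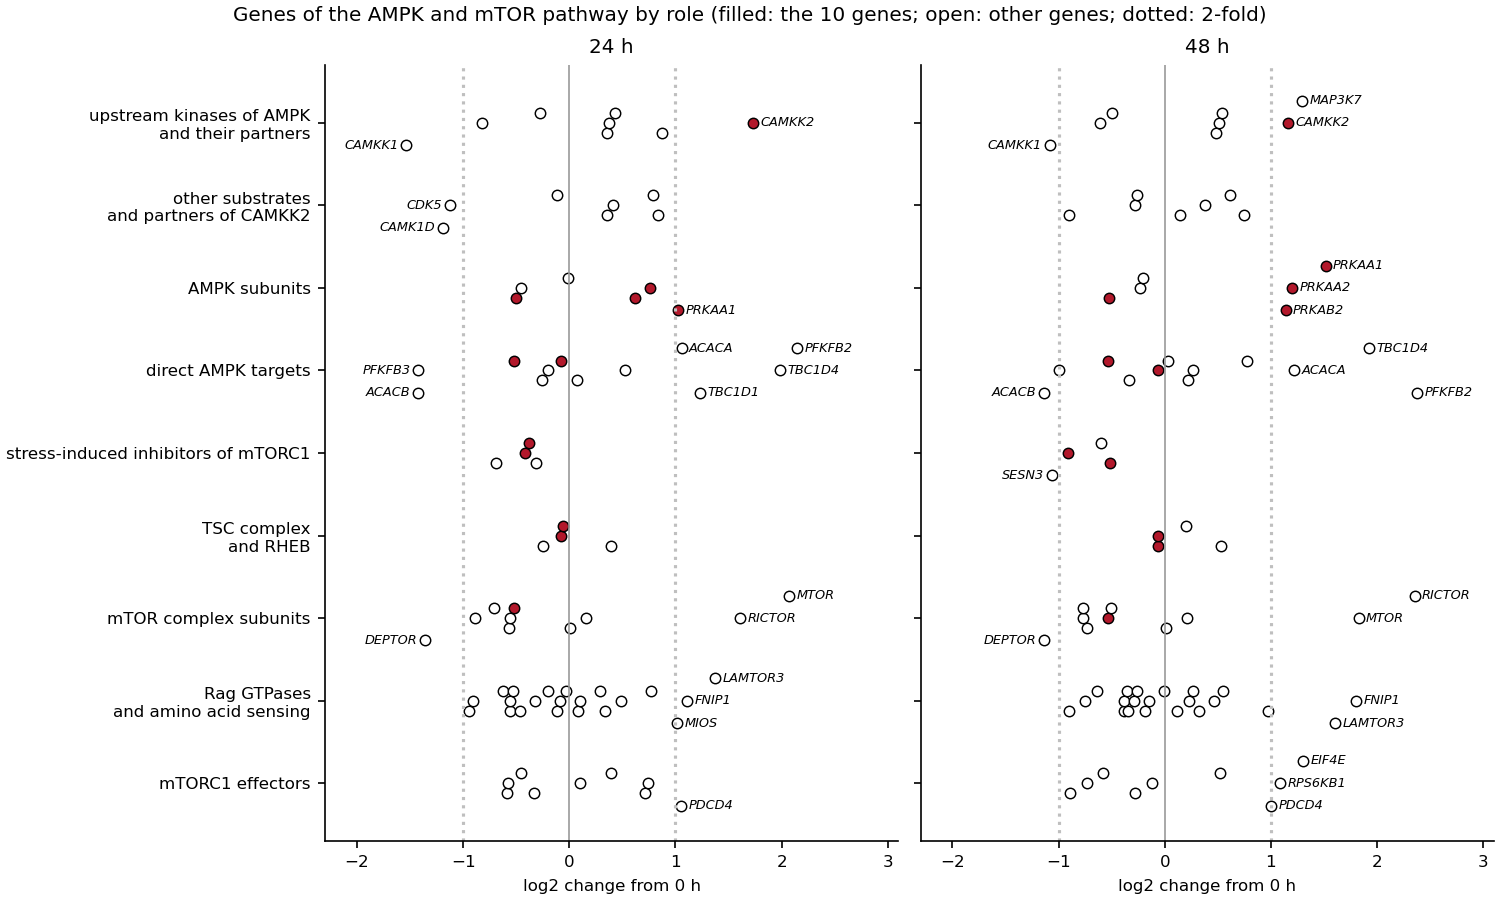
Log2 change from 0 h at 24 h and 48 h (horizontal axes) for the measured genes of 9 role lists (rows; height within a row only separates points), with the 10 genes filled and other genes open, dotted lines at 2-fold and names for genes past it. CAMKK2 is the furthest right of the upstream kinases at 24 h and CAMKK1 the furthest left, and the 4 genes of the TSC complex and RHEB row stay between the dotted lines at both times.

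Per kilobase of transcript DDIT4 stood at 114 CPM per kb and CAMKK2 at 111 at 0 h, well above the third, TSC2, at 35.5. From 3 h on CAMKK2 was first of the 10 in each library, at 228 to 403 CPM per kb, and DDIT4 second at 74.85 to 87.45 CPM per kb. PRKAA1 moved from rank 7 at 0 h (10.2 CPM per kb) to rank 4 at 48 h (29.6). SESN1 moved from rank 6 at 0 h (15.6) to rank 3 at 6 h (28.1) and rank 8 at 48 h (8.16 CPM per kb). The lengths are those of single transcripts while a line may hold several isoforms: with the longest coding transcript of 5598 bases in place of 2587, CAMKK2 had 51.1 CPM per kb at 0 h.

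Genes with the course most like that of CAMKK2, by the root mean square difference of the 5 log2 changes, were TNFAIP3 (0.17), TWIST1 (0.22), JAG1 (0.23), SDR9C7 (0.24) and IRS2 (0.26). IRS2, an adaptor of insulin signalling, had 13.2 CPM at 0 h and 30.2, 39.7, 38.5, 57.7 and 34.3 CPM after it, and JAG1, a Notch ligand, 108 and 251, 292, 317, 406 and 254 CPM. SDR9C7 was at 1 count at 0 h, and TNFAIP3 and TWIST1 were low there too, at 3.57 and 2.35 CPM. Nearest to SESN1 were CNTN5 (0.15), OTUD7A (0.18), SFPQ (0.19), MAP3K20 (0.21) and PRPF3 (0.22). CNTN5 had only 1.745 CPM at 0 h and 0.465 CPM at 48 h, and OTUD7A 2.28 and 0.731 CPM. At such levels the 1 CPM added before log2 understates changes, so their likeness to SESN1 is partly set by it. SFPQ, a splicing and paraspeckle protein gene, had 255 CPM at 0 h, 417 at 6 h and 155.5 at 48 h. Nearest to DDIT4 were a transcript without a symbol (0.033), ZNF444 (0.072), SIX5 (0.088), THAP11 (0.091) and TBC1D2 (0.091). All 5 log2 changes share the 0 h library, so a likeness can come from that library alone.

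Some of the 10 genes overlap others, and whether reads were counted by strand is not given in the sources used here. By the order of genes on GRCh38.p14, TSC2 overlaps PKD1, which had 1140 to 2370 counts beside 2321 to 4375 of TSC2, and SESN1 overlaps ARMC2, with 116 to 192 counts beside 431 to 1324. PRKAB1 overlaps the antisense gene PRKAB1-AS1, for which no value was found. The nearest genes of CAMKK2 did not share its course: P2RX4 had log2 changes of 0.08, -0.13, 0.04, 0.03 and -0.01, ANAPC5 0.12, 0.01, 0.17, 0.03 and 0.21, and RNF34 at most 0.47. P2RX7 had 3.87 CPM at 0 h and 0.777 CPM at 24 h (log2 -1.45).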

How the data were processed

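The deposited table gives 2 columns for each library and a line for each RefSeq transcript, from total RNA of LNCaP cells sequenced on an Illumina GAIIx, per the labels' protocols. The count columns hold whole numbers of tags, per the file headers. The RPM columns, called ppm in the file headers, hold the same counts scaled by the authors to a larger total, of which the listed transcripts are 86.9 to 89.5%. The submitters' processing notes name hg19. Which aligner, counter and strand setting were used is not given in the sources used here. Depth sets the precision: a count of 0 allows up to 3 counts, 0.146 to 0.228 CPM. As no molecular identifiers are named and PCR copies are not independent molecules, floors and intervals cover only counting error.

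Of 18051 lines 50 exact repeats were removed, and counts of transcripts of 1 symbol were added. Symbols were missing for 679 transcripts, and a RefSeq table on GRCh38.p14 gave 69 of them a name by accession. Groups and times came from the labels. CPM were taken over the listed genes, with 1 CPM added before log2, which understates changes of low genes, and a minimum mean of 20 counts. Intervals were exact Poisson for levels and exact binomial for ratios, at 95%. GC content and length came from GENCODE v29 transcripts on GRCh38, by accession or, failing that (TSC1, TSC2), the longest coding transcript of the symbol, for 11559 genes (97.0%). The GC curve was a lowess curve with span 0.3. Tools were Python 3.11.15, scipy 1.17.1, statsmodels 0.14.6, R 4.3.3 and edgeR 4.0.16, the last for TMM factors only. The steps were tested on simulated data.

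The text names the 10 genes, the listed pathway genes past 2-fold at both 24 and 48 h, the gene with the largest change at 24 h in each list, the 5 genes with the nearest course for CAMKK2, DDIT4 and SESN1, and KLK3, TMPRSS2 and FKBP5. Other genes named belong to a list or neighbour a member, and were chosen after their values were seen. The members and lists were chosen with earlier results of these data known.

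Alternatives were TMM factors, median of ratios, the deposited RPM, a pseudocount of 0.25 CPM, no minimum count, the GC curve subtracted, the mean of 0 and 3 h as baseline, a threshold of 1.5-fold and, added after seeing the data, totals without chromosomes 4 and 15.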

Additional observations from a re-analysis of the deposited data

How the results depend on the processing

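CAMKK2 was at least 2-fold higher at 3, 6, 12, 24 and 48 h under each alternative that kept the 0 h baseline and 2-fold rule. The mean of 0 and 3 h as baseline was run from 6 h on. There CAMKK2 was past 2-fold at 6, 12 and 24 h and not at 48 h (log2 0.55). PRKAB2 gained calls as higher at 6 and 12 h with that baseline (log2 1.11 and 1.16). Members called higher were 1 at each of 6, 12, 24 and 48 h with the GC curve subtracted (CAMKK2). Of all genes 3.75%, 4%, 7.09% and 7.23% were higher there. With median of ratios 1 member was called higher at 6 h and 1 at 12 h. With totals without chromosomes 4 and 15, a setting chosen after seeing the data, 1 was at 12 h. Neither of these last settings has a share over all genes here. Members called lower were 1 at 48 h with the GC curve subtracted (SESN1), beside 4.78% of all genes. At 1.5-fold, members higher were 5 at 6 h and 4 at 24 h, beside 28.5% and 21.6% of all genes. Members lower were then 1 each at 3 h (PRKAA2), 12 h (DDIT4) and 48 h (SESN1), beside 8.13%, 17.4% and 22%. Of the 69 pathway genes, 6 at 24 h and 7 at 48 h were higher with the GC curve subtracted, beside 7.09% and 7.23% of all genes. At 1.5-fold 16 were higher at 24 h, beside 21.6%, and 14 at 24 h and 17 at 48 h were lower, beside 24.2% and 22%. Against the mean of 0 and 3 h 1 was lower at 48 h, a setting without a share over all genes here. Called changes turned sign only with the GC curve subtracted: PRKAA1 at 6 h (-0.28) and 12 h (-0.052), and PRKAA2 at 6 h (-0.27) and 48 h (-0.22). The cause was not tested. TMM factors, the deposited RPM and the pseudocount of 0.25 lost 0 calls of members. No paired analysis was possible because each group has 1 library, and no library could be left out for the same reason. Depth limits PRKAA2 most, with 33 to 166 counts.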

Other observations

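TXNIP, which encodes an inhibitor of glucose uptake that AMPK marks for degradation, is among the nearest measured genes of PRKAB2 by gene order, and was on none of the lists. It had 852 CPM at 0 h and 201 CPM at 24 h, with log2 changes of -1.08, -1.35, -1.43, -2.08 and -1.49 at 3, 6, 12, 24 and 48 h, so it was called lower in each DHT library. TTC33, next to PRKAA1, had 58 counts at 0 h, 193 at 6 h and 252 at 48 h. As scaled, its log2 changes at 3, 6 and 48 h were -0.55, 1.51 and 1.72. For TXNIP and TTC33 no value with the GC curve subtracted is given here. Both genes were picked after their values were seen.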
